A study of Mus musculus with 35 samples.

Results

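The genes described here encode the downstream end of the mitochondrial respiratory chain: complex III, cytochrome c, complex IV and ATP synthase. They were chosen by symbol, as names that begin with Uqcr, Atp5 or Cox4 to Cox8 together with Cyc1, Cycs and the mitochondrially encoded mt-Cytb, mt-Co1, mt-Co2, mt-Co3, mt-Atp6 and mt-Atp8, leaving out names that end in -ps and genes whose FPKM averaged under 1 over the libraries. FPKM counts fragments per kilobase of a gene, relative to all fragments of its library. The rule gave 47 genes of 47069 identifiers, 11354 of which reached the same FPKM limit. Complex III has 10 of these genes, cytochrome c has 1, complex IV has 17 and ATP synthase has 19. Mitochondrial DNA encodes 6 of them and the nucleus 41. Another 5 genes matched by symbol but lay under the limit, namely the lung and hypoxia isoform Cox4i2 with a mean of 0.048 FPKM, Cox8b with 0.004, and Cox6c2, Cox7b2 and Cox8c, which were listed at 0. Just inside the limit were mt-Atp8 with a mean of 1.79 FPKM and Cox6b2 with 2.92.

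The libraries come from bone marrow-derived macrophages (BMDMs) of C57BL/6 mice, grown in L929-conditioned medium. BMDMs came from wild-type animals and from animals labelled AMPKα1-/-, meant to lack the α1 catalytic subunit of AMP-activated protein kinase, and received for 24 h DMSO vehicle, 100 nM dexamethasone (Dex, a synthetic glucocorticoid), 100 ng/ml lipopolysaccharide (LPS, a bacterial cell wall component), LPS + Dex, 1 µg/ml DAMPs (damage-associated molecular patterns) or DAMPs + Dex. The 12 groups had 3 replicates each, apart from LPS in wild-type cells, where replicates 2 and 3 entered (replicate 1 was not analysed here). In all, 35 libraries were used, 17 of them wild-type. The spacing of low FPKM values gave library totals of 15837203 to 31955298 fragments, and a single fragment on 1 kb thus stood for 0.0313 to 0.0631 FPKM.

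Before the results, the libraries were compared with their labels. Prkaa1, which encodes AMPKα1, ranged from 8.59 to 26.1 FPKM with a median of 15.3 in the wild-type libraries and from 9.05 to 24.0 with a median of 15.1 in those labelled AMPKα1-/-. The gene-level value therefore did not separate the genotypes, and since it also counts fragments from outside any deleted part, it checks nothing about the deletion. The macrophage genes Adgre1, Csf1r, Cd68, Itgam, Fcgr1 and Mertk summed to between 2329 and 3615 FPKM in the group means. A list of 8 neutrophil genes summed to 13.8 FPKM in wild-type vehicle, 144 in LPS and 788 in LPS + Dex, and to 24.5, 137 and 432 in the libraries labelled AMPKα1-/-. S100a8 reached 1147 FPKM and was the most abundant of them in the LPS + Dex libraries, and Camp, which reached 133, was so in the 5 libraries with LPS alone. Ngp reached 7.56 FPKM and Ltf 6.20, whereas Ly6g was at 0 in 31 of 35 libraries, Elane stayed at or below 0.475 and Mpo at or below 0.218. The part of these transcripts in the results was not tested.

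In the inner mitochondrial membrane, complex III passes electrons from ubiquinol to cytochrome c, and complex IV passes them from cytochrome c to oxygen. Both pump protons, and ATP synthase uses the returning protons to drive a ring of c subunits and make ATP. Each of these complexes combines a few subunits made inside the mitochondrion with others that are encoded in the nucleus and imported, and LPS-activated macrophages are known for a shift from respiration towards glycolysis.

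Sequences are shown for copies and for promoters. The mitochondrial genome has long copies in the nuclear genome, and 3 of the mitochondrially encoded genes cannot be told from them. Of the 50-base stretches of mt-Co2, 100% also occur in another annotated transcript, as do 99.5% of those of mt-Atp6, 99.9% of those of mt-Co3 and 51.1% of those of mt-Co1, but none of those of mt-Cytb or mt-Atp8. On chromosome 2, Gm13340 shares 27.5% of the stretches of mt-Co1 and Gm13341 shares 35.3% of those of mt-Co2. The copies described next lie side by side on chromosome 1 in GRCm38. Gm28661 matches mt-Co2 over 681 bases with 0 mismatches, Gm10925 matches mt-Atp6 over 678 bases with 0, and Gm28437 matches mt-Co3 over 783 bases with 0. Gm29216 covers the end of mt-Co1 over 492 bases with 6 mismatches, all of which fall in the stretch shown, read in GENCODE M21 at chrM:6381-6440 and chr1:24616138-24616197 (minus strand), with the bases that differ in capitals:

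mt-Co1: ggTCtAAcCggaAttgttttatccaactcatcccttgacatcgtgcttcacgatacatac

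Gm29216: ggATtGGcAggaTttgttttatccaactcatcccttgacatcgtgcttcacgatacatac

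The first difference is T1056A, counted from the first base of mt-Co1, with the base of mt-Co1 written first. How fragments that fit both places were counted is not given in the sources used here, so levels of these 4 genes cannot be compared with those of others. Among the nuclear genes, none shared over 50% of its 50-base stretches with another transcript and 14 shared none. Atp5o shared 41.6%, Atp5g2 38.3% and Cycs 26.1%. Cox7a2l shared 13.8% with Gm6969, a pseudogene listed at 27.5 to 99.2 FPKM, so its level is uncertain.

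The nuclear genes lie on many chromosomes, and nuclear respiratory factor 1 (NRF1) is a known activator of respiratory chain genes. RefSeq start sites on GRCm38.p6 gave 32 of the 41 nuclear genes at least 1 promoter of 250 bases before to 50 bases after the start. Of these, 4 genes (12.5%) hold the NRF1 motif (10 bases, in capitals in the sequences shown) on either strand, against 1.07% of all 27025 genes with a promoter. They are shown with the motif in capitals and 10 bases on either side, for Atp5g2 at chr15:102671070-102671099, Atp5k at chr5:108434430-108434459, Cox6a1 at chr5:115349101-115349130 (all minus strand) and Uqcrc1 at chr9:108936668-108936697 (plus strand):

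Atp5g2: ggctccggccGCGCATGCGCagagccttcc

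Atp5k: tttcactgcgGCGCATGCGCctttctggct

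Cox6a1: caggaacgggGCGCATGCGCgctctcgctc

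Uqcrc1: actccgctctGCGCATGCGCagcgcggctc

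The motif CCGGAAG of GABPA, another known activator, was found for 10 of the 32 genes (31.3%) against 9.93% of all, AAGATGGCG of YY1 in 2 (6.25%) against 1.64%, and the glucocorticoid response element in 0 against 0.052%. Both strands were searched for each motif, matches of different motifs could overlap, and a match is no evidence of binding. The shares over all genes include genes under the FPKM limit that the 32 genes had to reach, so they are not like for like.

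In wild-type vehicle libraries, 31 of the 47 genes had a mean of at least 100 FPKM, and 7 were under 20. On this per-length scale, and leaving out the 4 genes with nuclear copies, mt-Cytb led with a mean level of 1381 FPKM, before the ATP synthase β subunit gene Atp5b with 635, Cox6a1 with 612 and Cox4i1 with 514. The values of Atp5b (603, 625 and 676) and of Cox6a1 (558, 571 and 708) overlapped. At the low end were mt-Atp8 with 1.37 FPKM, Atp5s with 4.92 and genes of tissue isoforms, with 12.3 for Cox7a1, 7.70 for Cox6a2 and 4.35 for Cox6b2. Cycs, the gene of cytochrome c itself, had only 33.7 FPKM.

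With LPS these genes were called in both directions, as were all genes tested. In wild-type cells, Cycs and a group of nuclear subunit genes rose, 4 of the 6 mitochondrially encoded genes and the tissue isoforms Cox6a2, Cox6b2 and Cox7a1 fell, and 24 of the 47 genes did not pass the test in either direction. Of the 47 genes, 13 rose and 10 fell (limma, Benjamini-Hochberg adjusted p under 0.05), against 19.9% of all genes tested that rose and 35.8% that fell (55.7% in either direction). With the libraries labelled AMPKα1-/-, 16 rose and 10 fell, against 20.2% and 44.1% of all genes (64.3% in either direction). All 13 that rose in wild-type cells rose there too, and 8 genes fell in both. The median change was 0.14 on the log2(FPKM + 1) scale in wild-type cells and 0.17 in those labelled AMPKα1-/-, beside -0.19 and -0.30 over all genes tested. Centring each library on one median brought the latter to -0.04 and -0.02 and moved the calls to 14 up and 7 down in wild-type and 22 up and 5 down in labelled AMPKα1-/- cells. Over all genes tested, upward calls also went from 2258 to 2886 in wild-type and from 2295 to 3361 in labelled AMPKα1-/- cells.

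Cycs (ENSMUSG00000063694, chr6:50562563-50566538), whose product carries electrons between complexes III and IV and also triggers apoptosis when released, moved the most on the fitted scale. That scale understates low genes, and in both genotypes Cox6b2 changed more as a ratio of mean FPKM. Cox6b2 had 3.56, 3.59 and 5.90 FPKM in wild-type vehicle and 0.298 and 0.797 in LPS. With the label AMPKα1-/- it had 2.80, 3.06 and 3.34 in vehicle and 0, 0.424 and 1.25 in LPS. Cycs measured 29.4, 33.9 and 37.7 FPKM in wild-type vehicle and 137 and 155 in LPS. In the libraries labelled AMPKα1-/- it measured 31.3, 33.0 and 34.2 in vehicle and 141, 162 and 169.9 in LPS. No LPS library came near a vehicle library, and the change was 2.09 ± 0.14 (SE) in wild-type (adjusted p = 7.4e-13) and 2.23 ± 0.13 in labelled AMPKα1-/- cells (adjusted p = 1.27e-14, limma).

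Cox5a (ENSMUSG00000000088, chr9:57521274-57532426), a nuclear subunit of complex IV, followed the same course. It measured 30.3, 39.5 and 45.5 FPKM in wild-type vehicle and 85.7 and 111 in LPS, with no overlap, a change of 1.34 ± 0.21 (adjusted p = 5.33e-06, limma). The change in cells labelled AMPKα1-/- was 1.12 ± 0.19. Others that rose in both genotypes were the complex III accessory genes Uqcrb (0.79 and 0.81) and Uqcrq (0.72 and 0.93), Cox7a2 (0.83 and 0.86) and Cox7b (0.57 and 0.46) of complex IV, and Atp5b (0.63 in each), Atp5o (0.59 and 0.50) and Atp5g1 (0.54 and 0.80) of ATP synthase. Without wild-type LPS replicate 3, the wild-type calls of Uqcrq (adjusted p = 0.0784), Cox7b (0.0684), Atp5o (0.198) and Atp5g1 (0.0968) were lost, and that of Atp5o also without vehicle replicate 1 (0.0567). The call of Atp5o in labelled AMPKα1-/- cells was lost with no filter (0.0508) and without vehicle replicate 3 (0.056) or LPS replicate 1 (0.12).

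**Figure D1:**
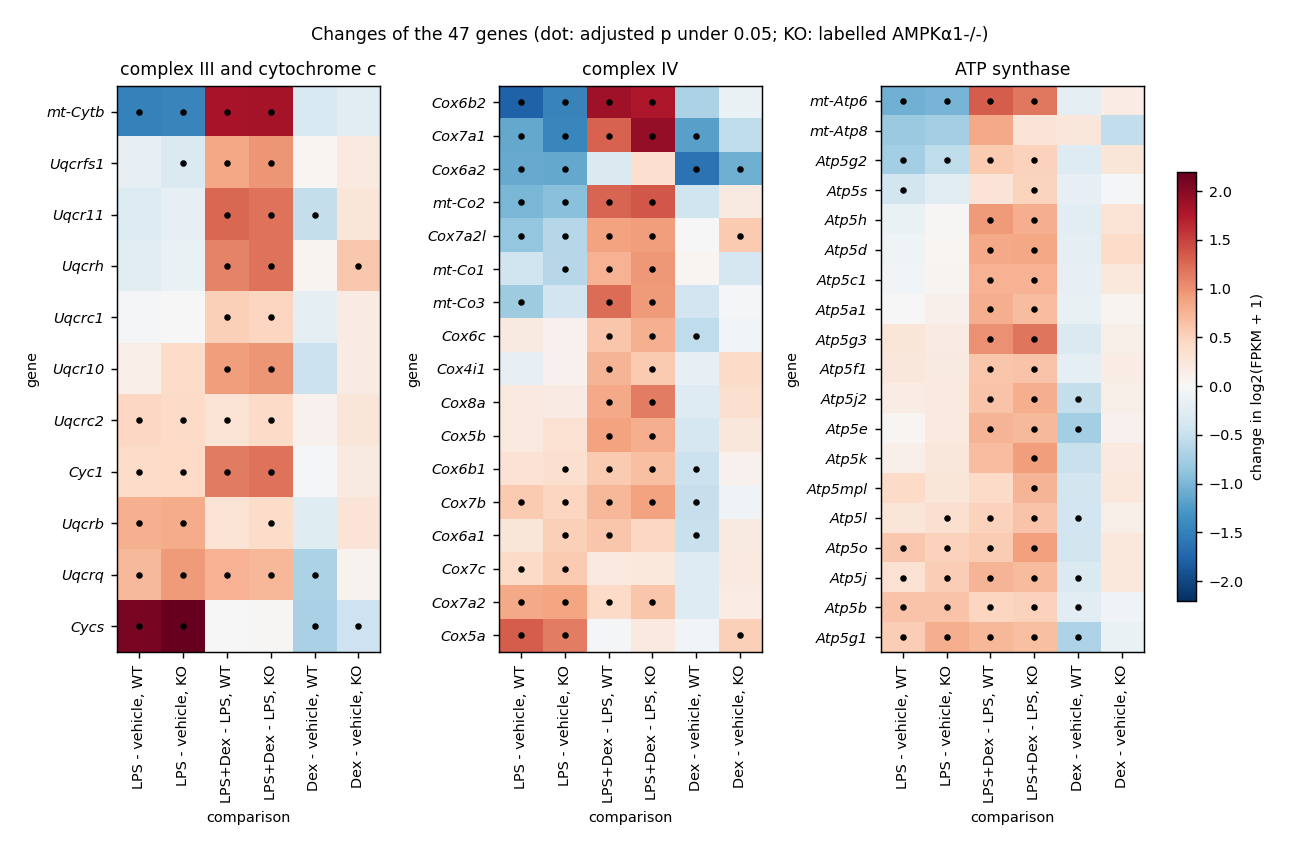
Change in log2(FPKM + 1) of each of the 47 genes (rows, by complex) in 3 comparisons in wild-type (WT) and labelled AMPKα1-/- (KO) libraries (columns). Red is higher in the first-named treatment, blue is lower, and a dot marks an adjusted p under 0.05. LPS gives both colours, with Cycs at 2.09 and Cox6b2 at -1.78 in WT, whereas LPS + Dex against LPS has dots on red cells only.

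Among the mitochondrially encoded genes, the calls with LPS were all downward. mt-Cytb (chrM:14145-15288), cytochrome b of complex III, which shared no 50-base stretch with another annotated transcript, measured 1253, 1406 and 1484 FPKM in wild-type vehicle and 474 and 505 in LPS. With the label AMPKα1-/- it measured 1608, 1635 and 1648 in vehicle and 482, 587 and 746 in LPS. In both genotypes the LPS libraries lay far below the vehicle libraries, and the change was -1.49 ± 0.23 (adjusted p = 2.87e-06) and -1.45 ± 0.20 (adjusted p = 5.76e-07, limma). All 6 mitochondrially encoded genes were lower in the means of both genotypes, with a median of -0.90 in wild-type and -0.84 in labelled AMPKα1-/- cells, and 4 passed the test in each. mt-Co2, mt-Atp6 and mt-Cytb fell in both. mt-Co1, the catalytic core of complex IV, had a change of -0.44 in wild-type (adjusted p = 0.122) and fell by 0.63 in labelled AMPKα1-/- cells, and mt-Co3 fell by 0.79 in wild-type and had -0.42 in the other (adjusted p = 0.155). The wild-type call of mt-Co3 was lost after centring (adjusted p = 0.0802), with only the groups compared (0.061), without vehicle replicate 2 (0.0651) and without LPS replicate 2 (0.511), where the change was -0.28.

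Nuclear genes that fell with LPS in both genotypes were Cox6b2, Cox7a1, Cox6a2, Cox7a2l and Atp5g2. The wild-type call of Cox6a2 was lost after centring (adjusted p = 0.0551) and without vehicle replicate 2 (0.0571). Uqcrfs1, the Rieske iron-sulfur subunit of complex III, fell by 0.32 in cells labelled AMPKα1-/- and had -0.18 in wild-type (adjusted p = 0.189). After centring, Uqcrfs1, Cox6a2, Cox7a2l, Atp5g2 and mt-Co1 no longer passed in labelled AMPKα1-/- cells, with adjusted p of 0.803, 0.0512, 0.187, 0.231 and 0.140, and without wild-type LPS replicate 3 the wild-type counts were 6 up and 9 down. Atpif1, the inhibitor of ATP synthase and not among the 47 genes, ranged from 40.7 to 48.3 FPKM in wild-type vehicle and from 14.0 to 19.1 in LPS, and fell by 1.43 ± 0.27 (adjusted p = 7.12e-05, limma).

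Adding Dex to LPS raised most of these genes in each complex. In wild-type cells 38 of the 47 rose and 0 fell in LPS + Dex against LPS, while 16.6% of all genes tested rose and 17.5% fell (34.1% in either direction). No gene of the 47 was lower even at an unadjusted p under 0.05. Cells labelled AMPKα1-/- had 41 up and 0 down, beside 19.3% and 18.4% of all genes (37.7%), and 37 of the genes rose in both genotypes. With the replicate number as a block, Cox6a1 (0.45) passed as well in cells labelled AMPKα1-/- (adjusted p = 0.0479, against 0.0534). The median change was 0.75 and 0.76, against -0.03 and 0.01 over all genes. Complex III had 9 of 10 genes up with a median of 0.88 in wild-type, complex IV had 14 of 17 with 0.75, and ATP synthase 15 of 19 with 0.73. In labelled AMPKα1-/- cells these were 10 of 10 with 0.98, 13 of 17 with 0.80 and 18 of 19 with 0.72, and the complexes were not tested against each other.

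The summed level of the 41 nuclear genes ranged from 8201 to 9726 FPKM in wild-type LPS and from 11850 to 16463 in LPS + Dex. In libraries labelled AMPKα1-/- it ranged from 8611 to 10423 and from 14415 to 16351. The groups did not overlap in either genotype, and in both the LPS + Dex libraries also lay above all vehicle libraries, of which the highest had 8440 and 7873 FPKM. As a percentage of all FPKM, the 41 genes had a mean of 1.155% with LPS and 1.67% with LPS + Dex in wild-type. With the label AMPKα1-/- they had 1.21% and 1.79%.

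**Figure D2:**
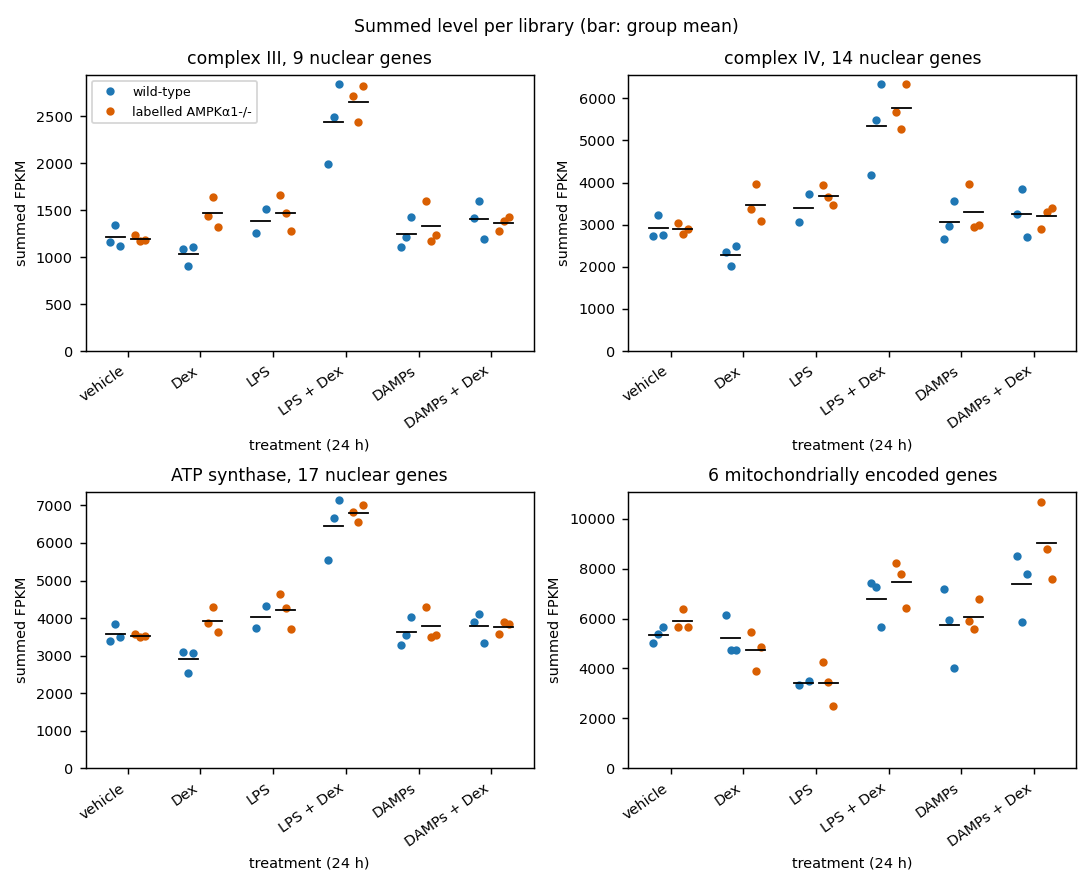
Summed FPKM per library (points) of the nuclear genes of complex III, complex IV and ATP synthase and of the 6 mitochondrially encoded genes, by treatment, with group means as bars and genotypes in colour. LPS + Dex is the highest group for the nuclear genes of each complex, and LPS is the lowest group for the mitochondrially encoded genes, with means of 3401 FPKM (wild-type) and 3413 FPKM (labelled AMPKα1-/-). Most of this last sum comes from mt-Co1, which has nuclear copies, and mt-Cytb. They had 2806 and 2905 FPKM, and 474 and 505, in wild-type LPS.

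Saa3, an acute-phase gene, took 16.0 to 24.0% of all FPKM in the wild-type LPS + Dex libraries and 16.5 to 21.5% in those labelled AMPKα1-/-, against 7.12 to 7.20% and 3.74 to 7.58% with LPS alone, and a gene this abundant lowers the scaled value of all others. Dividing by the share outside Saa3, an alternative chosen after seeing the data, gave 42 and 43 genes up and medians of 0.95 and 0.97, beside 0.14 and 0.19 over all genes. With only the wild-type LPS and LPS + Dex libraries in the fit, 19 rose and 0 fell, and without wild-type LPS replicate 2 the count was 22 and 0.

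In complex III, mt-Cytb rose to 1482, 1714 and 2001 FPKM in wild-type LPS + Dex, all above the LPS libraries, a change of 1.81 ± 0.23 (adjusted p = 3.03e-07, limma). Uqcr11 (chr10:80402997-80406830), an accessory subunit, measured 124 and 147 FPKM with LPS and 240.4, 343 and 423 with LPS + Dex, a change of 1.27 ± 0.22. Cyc1 (chr15:76343523-76346260), the cytochrome c1 subunit that hands electrons to cytochrome c, went from 66.1 and 79.7 to 144, 163 and 178 FPKM, a change of 1.14 ± 0.17. None of these genes had an LPS + Dex library within the LPS range. Uqcrh, the hinge subunit, and Uqcrfs1 also rose, by 1.08 and 0.85, whereas Uqcrb, which had risen with LPS, had 0.29 (adjusted p = 0.203).

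Complex IV had the widest range of changes. Cox6b2 (chr7:4751792-4753094), the testis isoform of Cox6b1, measured 0.298 and 0.797 FPKM with LPS and 3.37, 4.93 and 5.71 with LPS + Dex in wild-type cells, a change of 1.87 ± 0.33 on a scale that understates low genes. Cox7a1 (chr7:30184144-30186078), the heart and muscle isoform of Cox7a2, went from 4.65 and 5.42 to 8.29, 16.9 and 18.8 FPKM, a change of 1.30 ± 0.34 (adjusted p = 0.00305, and 0.053 with only these groups in the fit). mt-Co2 (chrM:7013-7696) went from 32.0 and 55.4 to 83.1, 103 and 129.98, a change of 1.28 ± 0.21. In each case the groups stood apart, and in vehicle these genes had measured 3.56 to 5.90, 10.3 to 15.2 and 77.3 to 95.7 FPKM, which overlap the LPS + Dex libraries.

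In ATP synthase, mt-Atp6 (chrM:7927-8607), subunit a of the proton channel, rose from 6.84 and 8.14 to 15.1, 21.1 and 25.8 FPKM, by 1.32 ± 0.28. Atp5g3 and the stalk subunit gene Atp5h (chr11:115415689-115419962) rose by 1.01 ± 0.16 and 0.93 ± 0.16. Atp5h measured 299.7 and 354 FPKM with LPS and 497, 630.1 and 765 with LPS + Dex, so the groups did not overlap. mt-Atp8, whose values lay between 0.231 and 2.40 FPKM in these wild-type libraries, had 0.84 ± 0.44 (adjusted p = 0.15).

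The 9 genes that did not pass in wild-type cells were Cycs, Cox5a, Cox6a2, Cox7c, Uqcrb, mt-Atp8, Atp5k, Atp5mpl and Atp5s, and the changes of the 38 that rose ranged from 0.31 to 1.87. Cycs and Cox5a, the genes that LPS had raised the most, were thus among those not called. Cycs measured 139.9, 149 and 149.7 FPKM in wild-type LPS + Dex, between the LPS libraries, and the change was -0.00 ± 0.14 (adjusted p = 0.997). Cox5a measured 65.0, 113 and 114, which spans the LPS values, a change of -0.05 ± 0.21 (adjusted p = 0.891). Neither passed with the label AMPKα1-/-, with 0.03 ± 0.13 for Cycs (adjusted p = 0.872) and 0.22 ± 0.19 for Cox5a (adjusted p = 0.412, limma). A miss of the threshold does not show that their levels were equal.

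**Figure D3:**
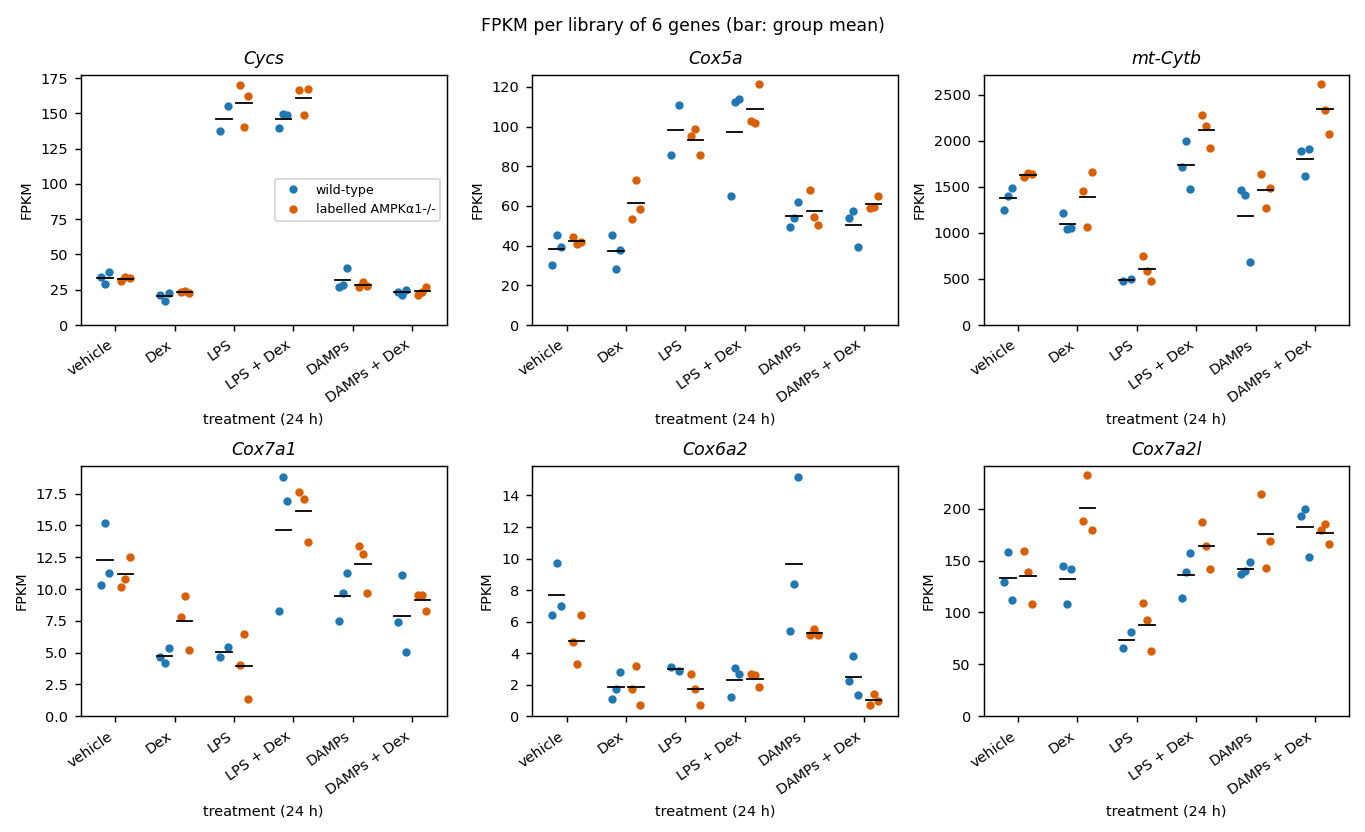
FPKM per library (points, with group means as bars) of Cycs, Cox5a, mt-Cytb, Cox7a1, Cox6a2 and Cox7a2l by treatment and genotype, each panel with its own axis from 0. Cycs is high in LPS (137 to 169.9 FPKM) and in LPS + Dex (139.9 to 167), whereas mt-Cytb drops in LPS (474 to 746) and returns in LPS + Dex (1482 to 2279).

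Against vehicle, LPS + Dex left 35 genes up and 1 down in wild-type cells (17.2% and 37% of all genes tested, 54.2% together) and 36 up and 0 down in those labelled AMPKα1-/- (16.7% and 40.8%, 57.4% together), with medians of 0.79 and 0.92 beside -0.23 and -0.28 over all genes. All 35 that rose in wild-type cells rose with the label AMPKα1-/- as well. 0 of the 6 mitochondrially encoded genes were called in wild-type (median 0.30; limma), and 1 of 6, mt-Co2, rose in labelled AMPKα1-/- cells (median 0.35), a call lost with a pseudocount of 0.1 (adjusted p = 0.0511), with no filter (0.103), without any 1 of the vehicle replicates (0.0539 to 0.121) and without LPS + Dex replicate 1 (0.0956) or 2 (0.142). The only gene called lower in this fit was Cox6a2 in wild-type (-1.42 ± 0.34, adjusted p = 0.000748, limma). With the label AMPKα1-/- its LPS + Dex libraries (1.83 to 2.67 FPKM) also lay below vehicle (3.29 to 6.42), and its change of -0.75 had an adjusted p of 0.0562, or 0.0352 with the replicate number as a block.

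The tissue isoforms were set beside their broad partners, with no test between them. Cox6a2 (chr7:128205435-128206387), the heart and muscle isoform of Cox6a1, measured 6.398, 6.99 and 9.71 FPKM in wild-type vehicle and 1.11, 1.75 and 2.80 with Dex. Values were 2.90 and 3.11 with LPS and 1.20, 2.69 and 3.04 with LPS + Dex. All these treated libraries lay below vehicle, with a change of -1.62 ± 0.34 for Dex (adjusted p = 0.000534) and -1.10 ± 0.38 for LPS (adjusted p = 0.0142, and 0.0551 after centring, limma). The call for LPS was also lost without vehicle replicate 2 (-0.94, adjusted p = 0.0571). Without LPS replicate 2 or 3, which leaves 1 LPS library, the change was -1.14 or -1.06. Its share of the summed FPKM of both isoforms was 1.23% ± 0.11 (SD, n = 3) in vehicle and 0.422% ± 0.15 with Dex. Cox6a1 itself also fell with Dex (-0.48), a call lost in most of the alternatives. For Cox7a1 the share of the Cox7a pair was 12.9% ± 2.3 in vehicle, 6.53% ± 0.41 with Dex, 3.30% ± 0.43 (n = 2) with LPS and 6.96% ± 2.8 with LPS + Dex. Cox7a2 itself measured 78.4 to 85.2 FPKM in vehicle and 145 and 151 with LPS, so the partners moved apart.

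Cox7a2l (chr17:83501918-83517330), which helps to join complexes III and IV into supercomplexes, measured 112, 129 and 158 FPKM in wild-type vehicle, 65.8 and 80.9 with LPS and 114, 139 and 157 with LPS + Dex. The LPS libraries lay below both other groups, with changes of -0.85 ± 0.21 (adjusted p = 0.0011) against vehicle and 0.88 ± 0.21 (adjusted p = 0.0014) for adding Dex.

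Subunit c of ATP synthase is made from 3 genes that differ in their targeting sequence and give the same mature protein. Atp5g2 (chr15:102662864-102672352) was the most abundant in vehicle, with 343, 354 and 435 FPKM in wild-type libraries, and measured 198 and 249.9 with LPS and 281, 345 and 382 with LPS + Dex. Atp5g3 (chr2:73908447-73911326) measured 145, 146 and 157, then 162 and 197, then 304, 383 and 405. Atp5g1 (chr11:96068852-96075670) measured 24.9, 26.1 and 29.3, then 37.7 and 41.02, then 55.3, 66.1 and 78.8. Thus Atp5g2 fell with LPS (-0.75 ± 0.16, adjusted p = 0.0003), Atp5g1 rose (0.54 ± 0.18, adjusted p = 0.0134) and Atp5g3 did not pass (0.26 ± 0.16, adjusted p = 0.187). All of them rose when Dex was added. For Atp5g2 this change was 0.58, a call lost with only the groups compared (adjusted p = 0.0923), and 0.41 without LPS replicate 2.

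As shares of the summed FPKM of the 3 genes, Atp5g2 held 68.1% ± 1.8 (SD, n = 3) in wild-type vehicle, 50.5% ± 1.1 (n = 2) with LPS and 43.8% ± 1.0 with LPS + Dex. Atp5g3 held 27.1% ± 1.6, 40.6% ± 0.29 and 47.5% ± 0.014. In libraries labelled AMPKα1-/-, Atp5g2 held 65.6% ± 1.8, 51.6% ± 0.81 and 41.5% ± 1.9. The leading gene of subunit c therefore changed from Atp5g2 to Atp5g3 in the mean of both genotypes. Of these genes only Atp5g2 has the NRF1 motif printed above, and since 38.3% of its 50-base stretches occur in other transcripts, against 11.1% for Atp5g1 and none for Atp5g3, its level is uncertain.

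**Figure D4:**
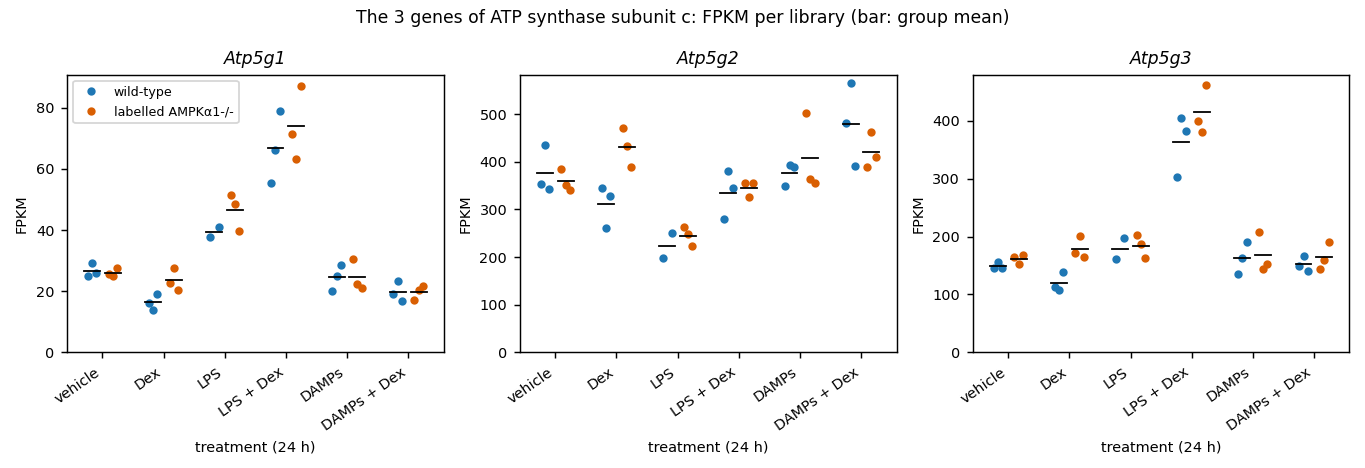
FPKM per library (points, with group means as bars) of the 3 genes of ATP synthase subunit c by treatment and genotype, each panel with its own axis from 0. Atp5g2 is lowest with LPS (198 to 262 FPKM), and Atp5g3 is highest with LPS + Dex (304 to 462 FPKM).

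Dex without LPS lowered a group of these genes in wild-type cells. There 0 of 47 rose (limma, also at an unadjusted p under 0.05) and 15 fell, against 15.9% and 14.9% of all genes tested (30.9% in either direction), with a median of -0.32 beside 0.05. Those with the lowest changes were Cox6a2, Cox7a1 (-1.20 ± 0.30) and the ATP synthase ε subunit gene Atp5e (-0.75), and Cycs fell from the vehicle values above to 16.9, 21.1 and 23.0 FPKM, with no overlap (-0.71 ± 0.13, adjusted p = 0.000101). All 15 were nuclear genes. The count was 7 without wild-type Dex replicate 2 and 9 without wild-type vehicle replicate 2, and Uqcr11, Cox6a1 and Atp5j no longer passed in most of the alternatives.

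With the label AMPKα1-/-, Dex alone gave 3 genes up and 2 down, against 11.9% and 16% of all genes (27.9%), with a median of 0.17 beside -0.05. Uqcrh (0.60 ± 0.17), Cox7a2l (0.57 ± 0.19) and Cox5a (0.52 ± 0.19) rose, while Cox6a2 (-1.08 ± 0.34) and Cycs (-0.46 ± 0.13) fell as in wild-type cells. The call of Cox5a (adjusted p = 0.042) was lost in most of the alternatives, that of Cycs after centring (0.0735), that of Cox7a2l with no filter (0.0506) and that of Cox6a2 without Dex replicate 3 (0.126). With the replicate number as a block Uqcrc2, a core subunit of complex III, passed too (0.26, adjusted p = 0.0268). Without vehicle replicate 3 of this genotype the count was 0 up and 1 down, and without Dex replicate 2 it was 0 up and 2 down.

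The difference between genotypes in the response to Dex was 0.54 in the median of the 47 genes, and 45 of them were above 0, beside -0.10 over all genes tested. None passed the test (0% of all genes tested), although 31 had an unadjusted p under 0.05, as did 2441 of the 11354 genes. The smallest adjusted p was 0.194 in limma, shared by genes that include Atp5j (0.56 ± 0.17) and Uqcrq (0.76 ± 0.26). The Dex libraries of the genotypes also stood apart in the neutrophil list, which summed to 2.24 to 6.95 FPKM in wild-type and 23.0 to 47.8 in labelled AMPKα1-/- cells, and in a list of 5 fibroblast genes, with 11.9 to 24.7 and 2.99 to 4.50 FPKM. Their part in this difference was not tested. For the responses to LPS and to Dex on LPS, 0 of 47 genes and 0% of all genes tested differed between genotypes, with 0 genes of the 47 at an unadjusted p under 0.05 in either, and medians of 0.08 and 0.04. In vehicle, 0 of the 47 differed between genotypes by limma, 1 had an unadjusted p under 0.05, and 0.432% of all genes passed (0.229% higher and 0.203% lower in those labelled AMPKα1-/-).

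The change with Dex depended on LPS in both genotypes. The change with Dex on LPS minus that without was above 0 at the test's threshold for 39 of 47 genes in wild-type cells, against 14.9% of all genes, with a median of 1.05, and for 27 in those labelled AMPKα1-/-, against 15.5%, with a median of 0.61. None was below 0 at the threshold, beside 17.1% and 12.8% of all genes, which makes 32% and 28.4% in either direction. Among the members with the smallest p in wild-type cells were Atp5a1, the α subunit of ATP synthase (0.95 ± 0.13), mt-Cytb (2.14 ± 0.31), Cox7b (1.25 ± 0.20) and Atp5g3 (1.34 ± 0.22). In labelled AMPKα1-/- cells Atp5l passed as well with the replicate number as a block (adjusted p = 0.0404, against 0.0514), and the count was 12 after centring, 37 after rescaling without Saa3, 15 without LPS replicate 3 and 17 without Dex replicate 3.

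**Figure D5:**
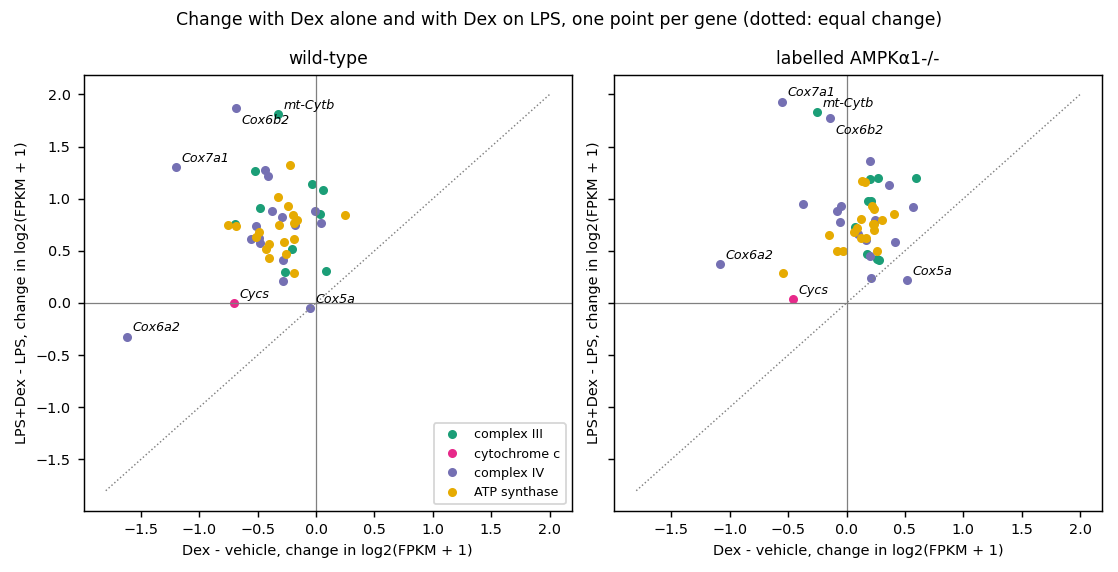
Change in log2(FPKM + 1) with Dex alone (x axis) and with Dex added to LPS (y axis) for the 47 genes, coloured by complex, in wild-type and labelled AMPKα1-/- libraries, with a dotted line of equal change. Nearly all points lie above the line, whereas Cox5a lies on it in wild-type cells and below it in labelled AMPKα1-/- cells.

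DAMPs moved none of these genes past the threshold. With DAMPs against vehicle, 0 of 47 were called in either genotype (1 in each at an unadjusted p under 0.05, limma), where 2.01% of all genes tested were called in wild-type (1.22% higher and 0.793% lower) and 4.13% in labelled AMPKα1-/- cells (1.89% and 2.24%). Dex added to DAMPs gave 1 gene up and 2 down in wild-type cells, against 11.7% and 12.6% of all genes (24.3%), and 1 up and 1 down in labelled AMPKα1-/- cells, against 13.1% and 12.2% (25.3%). mt-Cytb rose in both (0.68 ± 0.20 and 0.67 ± 0.20), from 680, 1408 and 1470.2 to 1621, 1892 and 1907 FPKM in wild-type cells. Cox6a2 fell in both (-1.57 ± 0.34 and -1.65 ± 0.34), from 5.40, 8.42 and 15.2 to 1.38, 2.23 and 3.80 FPKM in wild-type cells. Neither gene overlapped between these groups, although without wild-type DAMPs replicate 3, the lowest for mt-Cytb and the highest for Cox6a2, 1 call was left, that of Cox6a2. The change of mt-Cytb was then 0.32 and did not pass, and with only the groups compared its adjusted p was 0.176. In cells labelled AMPKα1-/- mt-Cytb also lost its call without DAMPs replicate 2 (adjusted p = 0.0793) and without DAMPs + Dex replicate 1 (0.0702). There the replicate number as a block added calls of Uqcrc2 (0.27, adjusted p = 0.0242) and mt-Co1 (0.53, 0.0363). Rescaling without Saa3 gave 3 up and 1 down, where 1624 of all genes tested rose, against 1482 in the main fit. The other gene that fell in wild-type cells was Cycs (-0.41). Its call was lost after centring (adjusted p = 0.0523), with only the groups compared (0.175) and without DAMPs replicate 3 (0.206) or DAMPs + Dex replicate 2 (0.0904).

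The other parts of the chain were set beside these genes by lists of gene names, with no test between lists. For LPS + Dex against LPS in wild-type cells, 28 of 37 nuclear complex I genes rose and 0 fell (median 0.69). Among them were Ndufv2 (1.32), Ndufb5 (1.24) and Ndufv1 (0.90), picked by p as in the lists that follow. All 4 genes of complex II, succinate dehydrogenase, rose (median 0.86), with Sdhd at 1.28, Sdha at 1.01 and Sdhc at 0.71. Of 8 genes that shape the cristae 6 rose and 1 fell, with Minos1 at 0.95, Samm50 at 0.87 and Apoo at 0.70. Of 7 carriers that feed or bypass ATP synthase 5 rose and 1 fell. Those that rose include the uncoupling protein gene Ucp2 (1.45), the phosphate carrier Slc25a3 (0.70) and the adenine nucleotide carrier Slc25a4 (1.10).

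The assembly genes and regulators were called in shares nearer to those of all genes in this comparison (16.6% up and 17.5% down, 34.1% in all), and nothing is read from their counts. Of 25 complex IV assembly genes 4 rose and 3 fell (median 0.08), with Coa5 down by 1.06 and the copper chaperone gene Sco1 down by 1.02, and Lrpprc, which stabilises mitochondrial mRNA, up by 0.82. Complex III assembly had 1 up and 1 down of 6 tested, as Hccs, which attaches heme to cytochrome c, rose by 0.46 and Ttc19 fell by 0.82. ATP synthase assembly had 1 up of 5, Fmc1 (0.67), while Atpaf2 had 0.25 (adjusted p = 0.0751) and Tmem70 had -0.18 (adjusted p = 0.264). Among 17 regulators of mitochondrial gene expression 4 rose and 2 fell. Ppargc1b, a coactivator of mitochondrial biogenesis, rose by 1.84 ± 0.27 (adjusted p = 4.53e-06), while its relative Pprc1 fell by 0.91 ± 0.24 and Gabpb1, a partner of GABPA, fell by 0.55 ± 0.15 (adjusted p = 0.00539, limma).

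These are bulk libraries, in which fewer cells of a type and less RNA per cell cannot be told apart. FPKM sets a gene against the fragments of its library and does not give its amount per cell. The FPKM of all genes summed to 647329 to 939953 per library, so equal FPKM is not an equal share of that sum.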

How the data were processed

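Members and gene lists were chosen with earlier results of these data known. The authors deposited FPKM values per library. The submitters' processing notes name Bowtie2 2.2.3, TopHat2 2.0.12, HTSeq 0.6.1, DESeq2 and GRCm38/mm10 without stating roles. Symbols came from GENCODE M21 (46488 of 47069 identifiers). Library totals were estimated from FPKM steps: 55.3% to 63.9% of values under 10 fragments came out whole within 0.001 fragments, so no count test was run. Replicates correlated at 0.967 to 0.993 in log2(FPKM + 1) across genes, and no pair of libraries had identical values.

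Expression was fitted as log2(FPKM + 1) over 35 libraries in 12 groups by limma 3.58.1 (R 4.3.3), with a trended empirical Bayes variance and 2-sided tests, keeping genes that averaged an FPKM of 1 or more. The Benjamini-Hochberg method was applied over 11354 genes at 0.05. The script was tested on simulated data for LPS + Dex against LPS in wild-type, with 200 of 11354 genes changed. It recovered 77% of log2 changes of 1 and 15% of those of 0.5, with 7 false calls among 99. Changes near 0.5 could therefore be missed. The study describes replicates in general as cultures from individual mice, and the labels do not say so for these libraries; p-values measure the spread between these samples. The comparisons of 1 genotype share libraries. Replicate numbers correlated in their deviations for LPS, LPS + Dex, Dex and vehicle labelled AMPKα1-/- (0.124 to 0.400), with every pair over 0.1, but no source used here states what a replicate number stands for. The 2 pairs of wild-type LPS + Dex and LPS had 0.113 and 0.429, too few to decide, and in the other comparisons not every pair passed 0.1. Values come from the fit without a block except where the block is named. Named genes were all mitochondrially encoded members, the 3 largest called changes per complex for LPS + Dex against LPS in wild-type and for LPS in labelled AMPKα1-/- cells, members called against the median there, isoforms, subunit c, Atpif1, and up to 3 genes per other list by p. Others were chosen after their values were seen. Dendritic cell, fibroblast, lymphocyte and erythroid marker lists were also summed. Alternatives were a pseudocount of 0.1, no filter, centring, only the groups compared, the replicate number as a block, each library left out, and rescaling without Saa3. Tables and figures used Python 3.11.15, numpy 2.4.6, pandas 2.3.3 and matplotlib 3.10.9.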

Additional observations from a re-analysis of the deposited data

Results flagged for a closer look

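The summed level of the 41 nuclear genes moved in opposite directions with Dex alone in the genotypes. In wild-type cells all 3 Dex libraries (5483 to 6696 FPKM) lay below all 3 vehicle libraries (7329 to 8440), a log2 ratio of the means of -0.31. In libraries labelled AMPKα1-/- all 3 Dex libraries (8078 to 9908) lay above all 3 vehicle libraries (7460 to 7873), a log2 ratio of 0.22. Without Dex replicate 2 of this genotype the ratio was 0.13, and leaving out any other library of either genotype gave -0.36 to -0.22 in wild-type and 0.20 to 0.28 in labelled AMPKα1-/- cells. The difference between these sums was not tested. The FPKM total of all genes moved likewise, with 647329 to 689281 for Dex and 697175 to 739460 for vehicle in wild-type. In libraries labelled AMPKα1-/- it was 725917 to 777210 and 703665 to 722633. As a percentage of that total, the 41 genes had a mean of 1.08% in vehicle and 0.926% with Dex in wild-type. The others had 1.08% and 1.19%, and again no groups overlapped. The part of the totals in the result was not tested. The neutrophil list summed to 1.85 to 32.3 FPKM in wild-type vehicle and 2.24 to 6.95 with Dex, and to 8.43 to 41.2 and 23.0 to 47.8 in libraries labelled AMPKα1-/-. The fibroblast list summed to 1.49 to 18.3 and 11.9 to 24.7 FPKM in wild-type, and to 1.16 to 2.77 and 2.99 to 4.50 in the others. The macrophage list was lower with Dex in both genotypes. It summed to 3031 to 3793 and 2340 to 2518 FPKM in wild-type, and to 2843 to 2991 and 2258 to 2369 in the others. Their part in the result was not tested. Gene by gene, limma called 0 of 47 genes for it, with a smallest adjusted p of 0.194.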

How the results depend on the processing

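For 291 calls of single genes there were 3788 values under the alternatives. Of these, 3478 kept their direction and stayed past the threshold, 310 kept the direction and lost the call, and 0 reversed. The calls of DAMPs against vehicle, of the vehicle libraries between genotypes and of the genotype differences stayed at 0 in each alternative. Counts that moved by over 1.5 times were 19 for LPS + Dex against LPS in wild-type with only the groups compared, 12 for the Dex effect with LPS minus without in labelled AMPKα1-/- after centring, 3 for Dex in labelled AMPKα1-/- with no filter, and 4 for DAMPs + Dex against DAMPs in labelled AMPKα1-/- both with the replicate block and after rescaling without Saa3. The replicate block changed no other count by over 1.5 times. In wild-type cells it ended the calls of Cyc1 (adjusted p = 0.0791) and Atp5j (0.0529) with LPS and of Uqcrc2 (0.0537) for LPS + Dex against LPS, for which Atp5k then passed (0.0449). Leaving out 1 library gave 15 to 21 for LPS, 22 to 41 for LPS + Dex against LPS, 7 to 15 for Dex and 1 to 4 for DAMPs + Dex in wild-type, and 1 to 5 for Dex, 1 to 3 for DAMPs + Dex and 15 to 29 for the Dex effect with LPS minus without in labelled AMPKα1-/- cells. The causes of these shifts were not tested, except that fewer libraries widen the errors. Rescaling without Saa3 raised the median change for LPS + Dex against vehicle to 1.10 in wild-type and 1.22 in labelled AMPKα1-/- cells. It also moved the median over all genes tested to 0.04 and -0.03. At 0.0313 to 0.0631 FPKM per fragment on 1 kb, values of mt-Atp8, Cox6b2 and Cox6a2 rest on few fragments.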

Other observations

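Nuclear copies of mitochondrial genes were near 0 in most libraries and high in a few. Gm28661, the copy of mt-Co2, had 74.5 FPKM in DAMPs replicate 3 labelled AMPKα1-/-, 24.6 and 22.5 in wild-type DAMPs + Dex replicates 1 and 2, and 5.70 in wild-type LPS + Dex replicate 3, where mt-Co2 had 85.8, 119.6, 101 and 129.98 FPKM. Gm29216, the chromosome 1 copy of the end of mt-Co1, had 94.97 FPKM in LPS + Dex replicate 2 labelled AMPKα1-/-, where mt-Co1 had 5456. No other library exceeded 2.97 FPKM for either copy. The dendritic cell, lymphocyte and fibroblast lists summed to at most 1.56, 1.71 and 17.2 FPKM in the group means, the last in wild-type Dex, and the erythroid list to at most 0.058.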
